A study of Mus musculus with 64 samples.

Results

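Mouse embryonic stem cells that lack the histone methyltransferase G9a still carry some dimethylated histone H3 lysine 9 (H3K9me2), and the comparison described here sets that remainder beside the level in cells that lack G9a together with Suv39h1 and Suv39h2 (Suv39h1/2). It uses 16 of the 64 libraries of the series, chosen by cell line, treatment and lot number as the labels give them. These are the untreated libraries of line SG (genotype G9a-KO) and line 3S1G (genotype G9a;Suv39h1/2-TKO), with 3 H3K9me2, 3 input and 2 Lamin B1 libraries per line. H3K9me2 and input come from lots 1, 4 and 7 and Lamin B1 from lots 1 and 4. The labels do not say what a lot stands for.

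Both lines are TT2 embryonic stem cells. The labels call SG newly generated and 3S1G established earlier, and each genotype is 1 line, so loss of Suv39h1/2 cannot be told apart from other differences between the lines. Setdb1, a further H3K9 methyltransferase, had not been deleted in either: the labels give Setdb1-deficient genotypes to these lines only after 96 h in 800 nM 4-hydroxytamoxifen (4OHT). The table holds no values per gene, so the loss of G9a and of Suv39h1/2 could not be checked, and no gene or region is resolved. In the deposited table line 3S1G carries a suffix to its name.

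G9a, together with its partner GLP, places most of the dimethyl mark on H3K9 in euchromatin of embryonic stem cells. Suv39h1 and Suv39h2 are best known for trimethylating H3K9 at the satellite repeats around centromeres, a reaction that passes through the dimethyl state. Lamin B1 is a filament protein of the nuclear lamina, and the chromatin domains that touch the lamina are often rich in H3K9me2.

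Before immunoprecipitation (ChIP), extract of fly S2 cells was mixed with mouse extract at 1 part to 9 parts by DNA content, so the fly reads serve as an internal reference. The measure used throughout, the normalised ratio, takes the mouse reads per fly read of a ChIP library and divides them by the mouse reads per fly read of its input. A value of 1 means that mouse and fly DNA were recovered in the proportion in which they were mixed. For Lamin B1 an antibody against the fly histone H2Av was added to recover fly chromatin, so for that antibody a value of 1 has no such meaning and only differences between genotypes can be read. The ChIP libraries of the 2 lines held 20.5 M to 88.4 M mapped reads and the inputs 30.6 M to 115 M. Counting error alone gave each normalised ratio a 95% interval no wider than ±0.219% of the value.

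The first question was how much of the H3K9me2 left without G9a is missing when Suv39h1/2 are also absent. H3K9me2 stood lower in the TKO than in G9a-KO cells in all 3 lots. In G9a-KO cells the normalised ratios of lots 1, 4 and 7 were 0.162, 0.349 and 0.146. In TKO cells they were 0.0845, 0.102 and 0.0179. The groups did not overlap, since the highest TKO library lay under the lowest G9a-KO library. The mean was 0.219 ± 0.113 (SD, n = 3) in G9a-KO and 0.0681 ± 0.0443 (SD, n = 3) in TKO cells.

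Matched by lot, TKO cells held 52.3% of the G9a-KO level in lot 1, 29.1% in lot 4 and 12.3% in lot 7. The missing share of the remainder was thus 47.7%, 70.9% and 87.7%. By geometric mean 26.6% was left, a log2 difference of −1.91. The exact two-sided permutation test of 3 against 3 libraries gave p = 0.100 (adjusted p = 0.167 over the 5 H3K9me2 tests), and no smaller p is possible with so few libraries, so the difference cannot pass the threshold of 0.05 in this design. Its 95% interval was −3.60 to −0.23 with the spread pooled over the 8 genotypes of the series, which corresponds to 8.27% to 85.4% left. With the SD of these 2 genotypes alone it was −4.38 to 0.55 and included 0. The size rests in part on lot 7: the log2 difference was −1.36 without that lot, −1.12 without its TKO library alone, and −0.94 by medians over lots (exact permutation p of 0.33, 0.20 and 0.20).

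**Figure D1:**
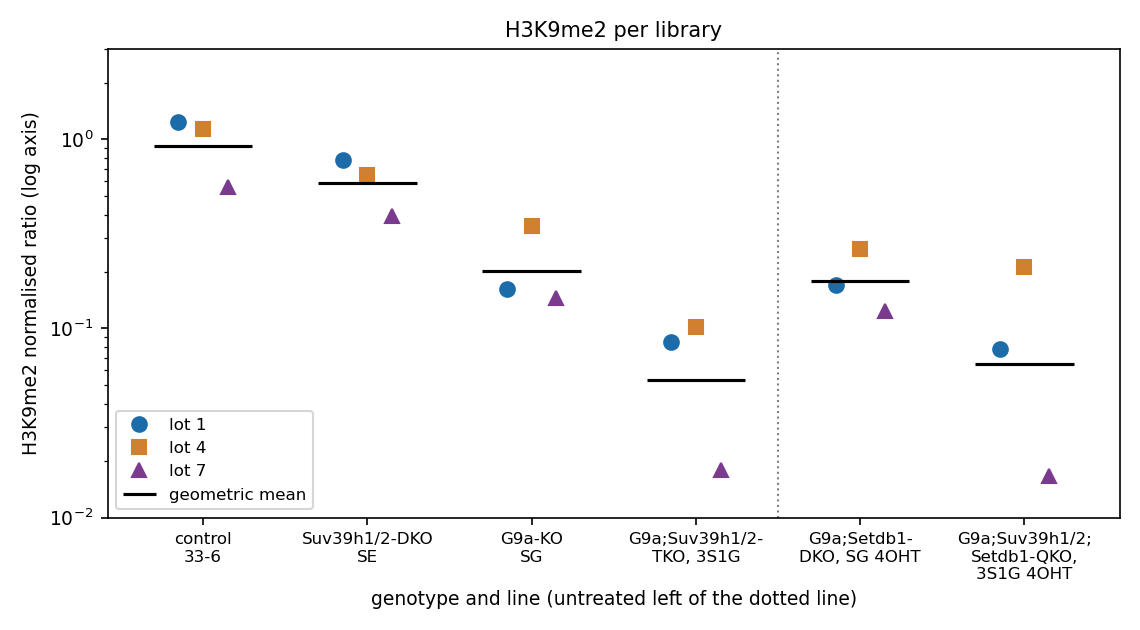
Each point is the H3K9me2 normalised ratio of 1 library on a log axis, by genotype and line, with lots 1, 4 and 7 as circles, squares and triangles and the geometric mean as a bar; genotypes right of the dotted line had received 4OHT. The 3 TKO libraries, from 0.0179 to 0.102, lie below the 3 G9a-KO libraries, from 0.146 to 0.349, and the lot 7 libraries of line 3S1G are the lowest points.

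The reads behind these ratios show the same order before any input correction. Fly reads made up 37.2%, 27.4% and 32.2% of the H3K9me2 libraries of G9a-KO cells in lots 1, 4 and 7. In TKO cells the fly share was 50.5%, 49.3% and 79.4%. Mouse reads were thus 49.5%, 50.7% and 20.6% of the TKO libraries, although 9 of every 10 parts of the DNA had come from mouse. The mouse to fly ratio of the ChIP libraries was 1.69, 2.65 and 2.11 in G9a-KO cells and 0.981, 1.03 and 0.259 in TKO cells, and again the groups did not overlap. On this uncorrected scale the log2 difference was −1.72 (exact permutation p = 0.100, adjusted p = 0.25).

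Set against the mixture, mouse DNA of G9a-KO cells was recovered 2.86-fold to 6.87-fold less than fly DNA. For TKO cells the figure was 11.8-fold in lot 1, 9.82-fold in lot 4 and 55.8-fold in lot 7. Mouse reads that do not depend on the mark were not measured, so the levels include any such background.

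**Figure D2:**
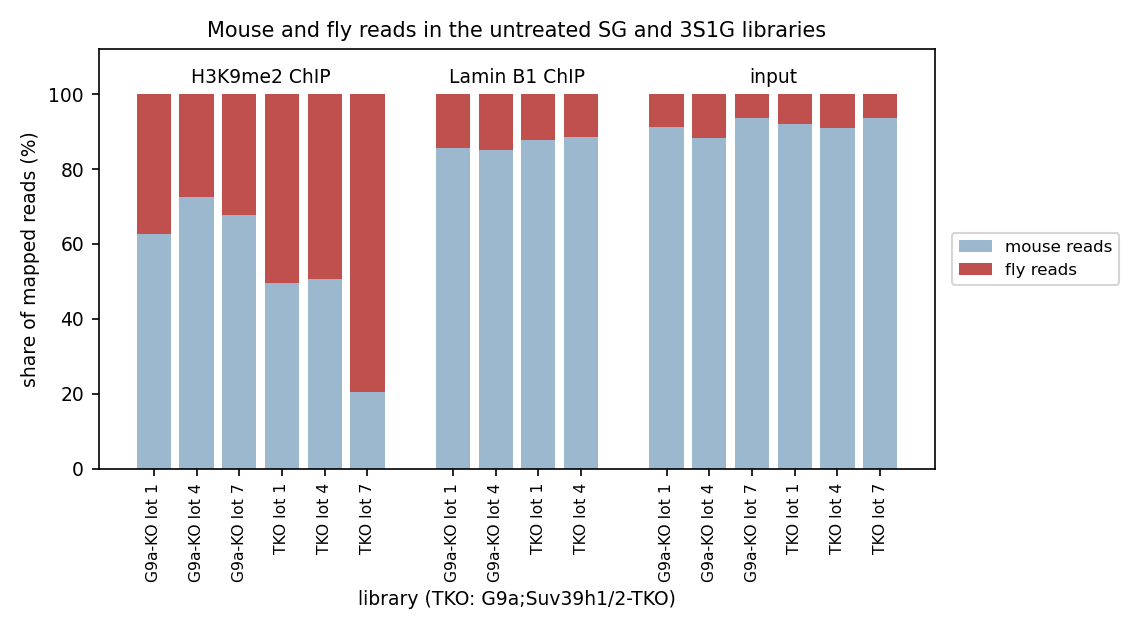
Stacked bars give the share of mapped reads (%) that came from mouse and from fly in each of the 16 untreated libraries of SG and 3S1G, grouped by antibody and labelled by genotype and lot. Fly reads reach 79.4% in the lot 7 H3K9me2 library of TKO cells, and they stay between 6.47% and 11.6% in the inputs.

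Lot 7 stood apart in line 3S1G. Its H3K9me2 normalised ratio was the lowest of the 3 lots in all 8 genotypes of the series. On the log2 scale, lot 7 minus the mean of lots 1 and 4 was −0.71 in G9a-KO cells and −2.37 in TKO cells. After 4OHT it was −0.77 in SG and −2.95 in 3S1G, against −1.09 to −0.86 in the 4 genotypes of lines 33-6 and SE. The TKO library of lot 7 held 31.7 M fly reads, close to the 34.2 M and 32.9 M of lots 1 and 4, but 8.21 M mouse reads against 33.5 M and 33.9 M. Without the input correction the same difference was −1.96 in TKO cells and −0.0057 in G9a-KO cells. The lot 7 input ratio lay above the mean of lots 1 and 4 in every genotype, by 0.078 to 0.71 on the log2 scale. The H3K9me2 normalised ratios of lots 1 and 4 differed by 0.27 on the log2 scale in TKO cells and by 1.11 in G9a-KO cells.

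The input libraries enter both normalised ratios, so they were compared in the same way. The mouse to fly ratio of the inputs was 10.4, 7.59 and 14.5 in G9a-KO cells and 11.6, 10.1 and 14.4 in TKO cells for lots 1, 4 and 7. The 2 sets of values overlapped. TKO inputs were higher by 0.19 on the log2 scale, with −0.37 to 0.75 as the 95% interval (exact two-sided permutation p = 0.700), and it was −0.043 without the lot 4 input of G9a-KO cells, the lowest of these 6. Fly reads made up 6.47% to 11.6% of these inputs, against 10% of the DNA mixed in.

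To place the remainder on the scale of cells with all enzymes, each value was divided by that of untreated control cells (line 33-6) of the same lot. G9a-KO cells stood at 13.0%, 30.7% and 26.1% of the control in lots 1, 4 and 7. TKO cells stood at 6.82%, 8.93% and 3.21%. The step between the 2 genotypes was thus 6.22, 21.7 and 22.9 percentage points of the control level. No library of either genotype reached the lowest control library, which was 0.558 in lot 7.

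The next question was whether Lamin B1 follows. Lamin B1 was nearly level between the 2 genotypes in both lots. In G9a-KO cells the normalised ratio was 0.570 in lot 1 and 0.748 in lot 4, and in TKO cells it was 0.617 in lot 1 and 0.758 in lot 4. Each TKO library was slightly above the G9a-KO library of its lot, and the groups overlapped. The mean was 0.659 ± 0.126 (SD, n = 2) in G9a-KO and 0.688 ± 0.0997 (SD, n = 2) in TKO cells, which is well within the spread between lots.

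The log2 difference in Lamin B1 was 0.07, with a 95% interval of −0.64 to 0.77, or 64.4% to 171% of the G9a-KO level. That interval used the spread pooled over genotypes, and from these 2 genotypes alone it was −0.99 to 1.13. The exact two-sided permutation test of 2 against 2 libraries gave p = 0.667 (adjusted p = 0.889 over 4 tests), and it cannot go below 0.33. The sign is not settled, since it turned to −0.13 without the lot 1 G9a-KO library and to −0.08 without the lot 4 TKO library. Without the input correction the mouse to fly ratio was 5.94 and 5.68 in G9a-KO and 7.17 and 7.66 in TKO cells, so on that scale both TKO libraries lay above both G9a-KO libraries, by 0.35 on the log2 scale (exact permutation p = 0.33).

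**Figure D3:**
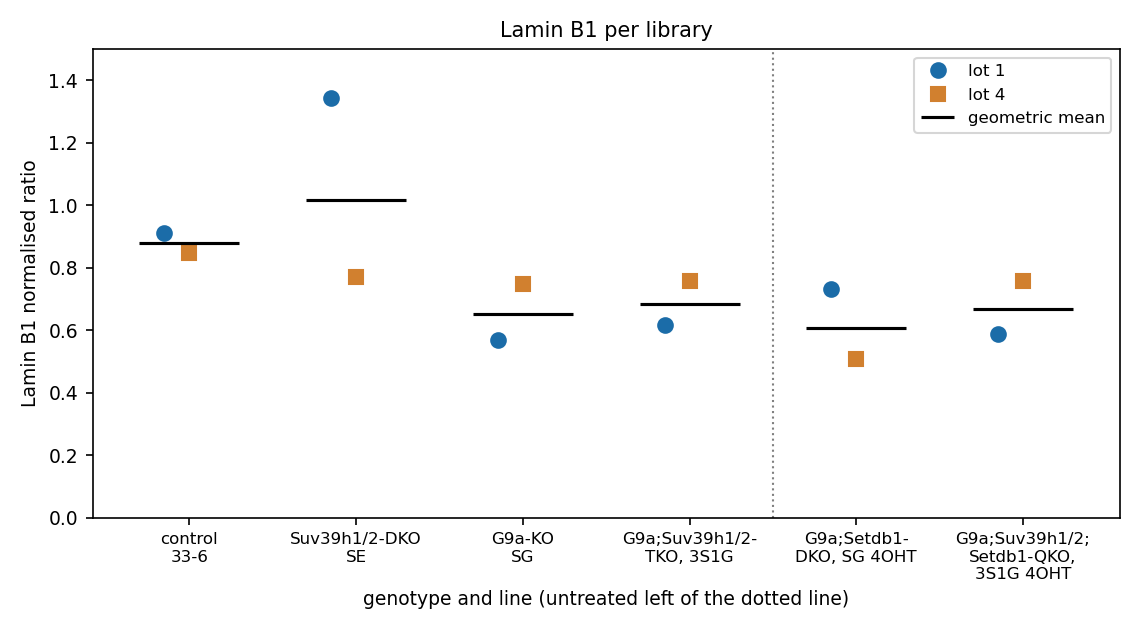
Each point is the Lamin B1 normalised ratio of 1 library on a linear axis from 0, by genotype and line, with lots 1 and 4 as circles and squares and the geometric mean as a bar; genotypes right of the dotted line had received 4OHT. The TKO libraries, at 0.617 and 0.758, lie beside the G9a-KO libraries at 0.570 and 0.748.

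Whether H3K9me2 and Lamin B1 differ in this respect was tested on the difference itself. Within a lot both ChIP libraries share 1 input, which drops out when log2 Lamin B1 is taken from log2 H3K9me2. On the log2 scale, the H3K9me2 difference minus the Lamin B1 difference was −1.05 in lot 1 and −1.80 in lot 4. The mean was −1.42, with intervals (95%) of −2.55 to −0.30 from the spread pooled over genotypes, and −2.97 to 0.12 from these 2 genotypes alone. With 2 pairs against 2, exact two-sided permutation returned p = 0.33 (adjusted p = 0.33), and the design allows none smaller, so the test could not have passed the threshold. Lamin B1 has no lot 7 here, so the lot with the lowest H3K9me2 has no counterpart.

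The same loss of Suv39h1/2 can be read with G9a present, between untreated lines SE (Suv39h1/2-DKO) and 33-6 (control). There the lot-matched H3K9me2 was 63.2% of the control in lot 1, 57.2% in lot 4 and 70.7% in lot 7. The fraction left was larger than in the same lot without G9a, by little in lot 1 (52.3%) and by much in lot 7 (12.3%). In lot 1 this order turned without the input correction, with log2 differences of −0.89 with G9a and −0.78 without it. If both losses simply multiplied, TKO cells would stand at 0.102, 0.200 and 0.103, and the measured values were 82.7%, 51.0% and 17.4% of those. The effect without G9a minus that with G9a was −1.26 in log2 units (95% interval −3.64 to 1.13). Exact two-sided permutation of the 6 lot-matched differences gave p = 0.100, the smallest possible (adjusted p = 0.167).

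This comparison of backgrounds depends on the scale, on the input correction and on lot 7. Without the input correction, the effect without G9a minus that with G9a was −0.84 in log2 units (exact permutation p = 0.300). With inputs averaged over lots it was −1.26 (exact permutation p = 0.200). As an absolute step of the ratio, the mean difference was smaller without G9a, so the sign turned to 0.22 on the linear scale (exact permutation p = 0.200). With these starting levels that sign could not have been negative. The mean ratio fell from 0.979 to 0.610 with G9a present, and G9a-KO cells held only 0.219 to lose. The linear scale therefore cannot test the log2 result. On the log2 scale the effect without G9a minus that with G9a was −0.62 without lot 7 (exact permutation p = 0.33). It was −0.70 without the lot 7 library of either G9a-KO or TKO cells (exact permutation p = 0.100 each). For Lamin B1 the lot-matched log2 differences were 0.56 and −0.14 with G9a and 0.12 and 0.02 without it. Their difference was −0.14 with a 95% interval of −1.14 to 0.85 (exact permutation p = 1.00), and its sign depended on the lot and on the input correction.

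**Figure D4:**
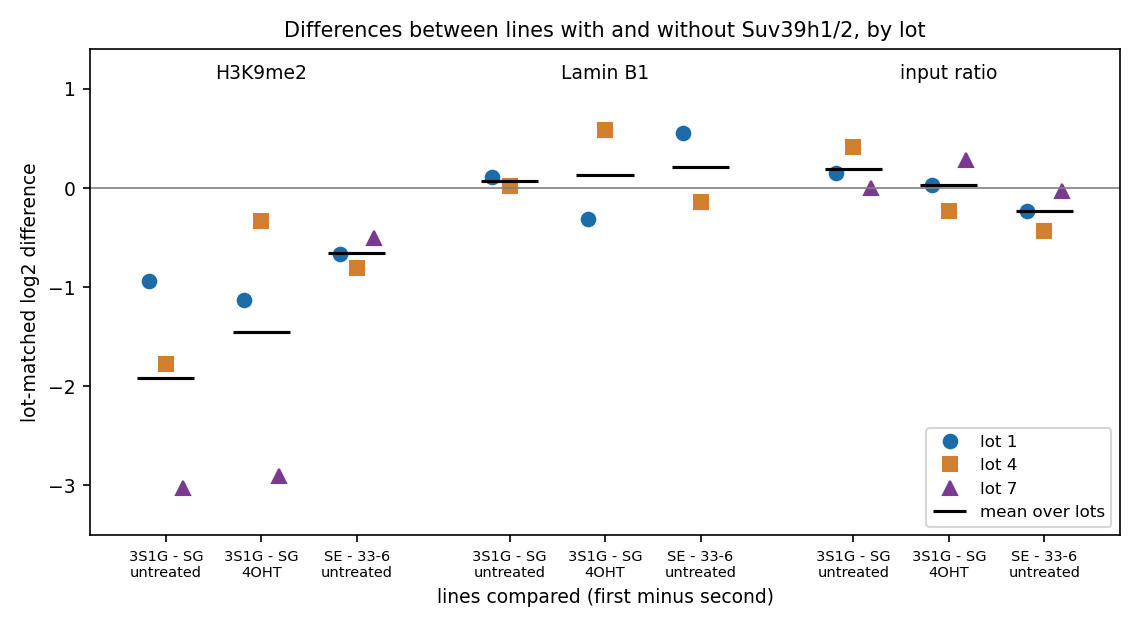
Points give log2 differences between lines within a lot (circles lot 1, squares lot 4, triangles lot 7) for H3K9me2, Lamin B1 and the input mouse to fly ratio, with the mean over lots as a bar; the line at 0 marks no difference. All 3 untreated H3K9me2 points of 3S1G minus SG are below 0, from −0.94 to −3.02, while the Lamin B1 points lie at 0.12 and 0.02.

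Lines SG and 3S1G were profiled once more after 4OHT, in libraries that enter the untreated comparison only through the pooled SD of its intervals. G9a;Setdb1-DKO cells (SG) had H3K9me2 ratios of 0.171, 0.264 and 0.124 in lots 1, 4 and 7. G9a;Suv39h1/2;Setdb1-QKO cells (3S1G) had 0.0777, 0.210 and 0.0166. The QKO value was lower in each lot, at 45.6%, 79.6% and 13.4% of the DKO value, but the groups overlapped, because the lot 4 QKO library was above the lot 1 and lot 7 DKO libraries.

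After 4OHT the log2 difference in H3K9me2 was −1.45, 95% interval −3.14 to 0.23 (exact permutation p = 0.300, adjusted p = 0.33). From the SD of DKO and QKO cells alone, the 95% limits were −4.54 and 1.63. Fitting a lot term gave limits of −2.46 and −0.45, which left out 0. That fit takes the shift between lots as the same in every genotype. Lot 7 minus the mean of lots 1 and 4 was, however, −0.77 in SG and −2.95 in 3S1G after 4OHT. Exact sign flips of the 3 lot pairs gave p = 0.25, the smallest they can give. The difference was −2.30 without the lot 4 QKO library, −0.47 without the lot 7 QKO library and −0.73 without lot 7. Over both treatments the difference was −1.68, 95% interval −2.87 to −0.49, and 3S1G was lower in 6 of 6 lot-matched pairs. Exact permutation of the line labels within treatment, 6 against 6 libraries, gave p = 0.0250, which did not pass after adjustment over the 5 tests (adjusted p = 0.125). It did pass without the lot 4 QKO library (−2.11, exact permutation p = 0.005, adjusted p = 0.0250). That library was the only one of 3S1G to overlap SG within a treatment, so leaving it out removed the overlap by construction. Without lot 7 the difference was −1.04 (exact permutation p = 0.111). These counts and p-values take the 6 libraries of a line as independent, although they are 3 lots of 1 line under both treatments, and lot 7 enters with −3.02 untreated and −2.90 after 4OHT. With the treatments averaged per line and lot, an alternative chosen after seeing the data, the 95% interval was −3.46 to 0.097 (exact permutation p = 0.20 for 3 against 3, adjusted p = 0.33).

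Lamin B1 after 4OHT gave opposite signs in the 2 lots. The ratio was 0.732 in DKO and 0.588 in QKO cells in lot 1, and 0.506 and 0.758 in lot 4. QKO cells stood 0.13 higher on the log2 scale, 95% interval −0.57 to 0.84 (exact permutation p = 0.667, adjusted p = 0.889). Over both treatments it was 0.10 with a 95% interval of −0.40 to 0.60 (exact permutation p = 0.556, adjusted p = 0.889), and 3 of 4 lot-matched pairs were higher in 3S1G.

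A read trimmer, fastp 0.23.4, is named in the submitters' processing notes for the 8 untreated 3S1G libraries and for none of the 8 SG libraries, so trimming and genotype cannot be told apart. No statement separates independent cultures from repeat preparations, so the p-values cover library-to-library spread, which may be technical.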

How the data were processed

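The authors' deposited table gives whole-number counts of mouse and fly reads for each ChIP library and its input, and ratios derived from them, per the file headers. The deposited scaling ratio equalled the ratio recomputed from the counts in 40 of 40 entries, to a relative tolerance of 1e-09. Per the submitters' processing notes, Bowtie2, SAMtools and deepTools 3.5.2 were used on builds mm10 and dm6. How reads were filtered after mapping, and whether duplicates were removed, is not stated there. Counting intervals were computed on read pairs, because all 160 counts are even. Entries were matched to samples by line, treatment, antibody and lot.

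Log2 normalised ratios were compared by exact two-sided permutation tests, adjusted by Benjamini-Hochberg over 5 H3K9me2 and 4 Lamin B1 tests, with the input test alone, at a threshold of 0.05. Intervals of 95% used the SD pooled over all 8 genotypes of an antibody (24 H3K9me2, 16 Lamin B1 libraries). The alternatives tried are given in the closing section. Lots were matched by number. Each library gives 1 value, so pairing by lot was checked on the spread: lot 7 was lowest for H3K9me2 in 8 of 8 genotypes, and with lot as a term the pooled log2 SD was 0.573 in place of 0.973 for H3K9me2 and 0.324 in place of 0.305 for Lamin B1. The main tests leave lot out, except that the comparisons of backgrounds with and without G9a permute lot-matched differences. Their intervals still leave lot out. Adding lot as a term was one of the alternatives. The comparison, tests and alternatives were chosen with earlier results of these data known. No gene was named as measured, because the table holds none. The software was scipy 1.17.1, numpy 2.4.6, matplotlib 3.10.9 and pandas 2.3.3 under Python 3.11.15.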

Additional observations from a re-analysis of the deposited data

How the results depend on the processing

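Of 165 alternative values over the 10 tested differences, 14 turned in sign and 10 carry no test. Only H3K9me2 over both treatments, tested on 6 against 6 libraries, had enough libraries to pass the threshold, and it did so in 1 alternative; for the others the side of the threshold says nothing about stability. Lower H3K9me2 in untreated 3S1G than SG kept its sign in all 16 alternatives, from −2.40 to −0.94 on the log2 scale and at −0.15 as a difference of ratios, with adjusted p-values of 0.167 to 0.444 by exact permutation. Only leaving out the input correction could have turned that sign. The TKO and G9a-KO libraries did not overlap, so leaving out libraries, medians and the linear scale had to keep it. The remaining alternatives left the value at −1.91 by construction. With lot as a replicate block, exact sign flips cannot go below p = 0.25 for 3 pairs or 0.5 for 2, so no call could change there. Fitting lot as a term gave intervals of −2.92 to −0.91 for untreated H3K9me2, −0.70 to 0.83 for Lamin B1 and −2.16 to −0.69 for the gap between them. For the H3K9me2 effect without G9a minus that with G9a it gave −2.68 to 0.16. That fit takes the shift between lots as the same in every genotype. For H3K9me2 the log2 shift of lot 7 from the mean of lots 1 and 4 was −0.71 in G9a-KO and −2.37 in TKO cells. The untreated H3K9me2 interval may therefore be too narrow. Without a lot term, the SD of G9a-KO and TKO cells alone gave −4.38 to 0.55, which included 0. Over both treatments the block gave p = 0.0313 for H3K9me2 by exact sign-flip permutation (adjusted p = 0.156).

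Leaving out each lot or library in turn gave −2.11 to −1.04 for H3K9me2 over both treatments, −0.13 to 0.26 for untreated Lamin B1, −0.32 to 0.58 for Lamin B1 after 4OHT, −0.10 to 0.30 for Lamin B1 over both treatments, −0.043 to 0.42 for the inputs and −0.49 to 0.20 for the Lamin B1 effect without minus with G9a. That last value was 0.47 without input correction and 0.051 with inputs averaged over lots, and the cause was not tested. The H3K9me2 counterpart was 0.22 on the linear scale, where G9a-KO cells held less than the fall seen with G9a. Leaving out a lot leaves 1 Lamin B1 library per genotype and no residual spread, so those values carry no test. Counting intervals take read pairs as independent, and whether duplicates were removed is not stated.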
